A study of Mus musculus with 8 samples.

Results

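The genes described here encode 9 RNA-binding proteins that decide, in a cell-type-dependent way, which exons are kept in an mRNA: Esrp1, Esrp2, Mbnl1, Mbnl2, Celf1, Celf2, Rbfox2, Ptbp1 and Ptbp2. They were chosen by name, with earlier results of these data known, from 21938 protein-coding genes, and each gene was taken with 10 kb on either side. Accessible DNA was cut by Tn5 transposase and sequenced (bulk ATAC-Seq), so the data describe open chromatin at these loci and neither their mRNA nor their splicing. Hepatocytes came from mice on normal diet, labelled C57BL/6 and aged 10 to 12 weeks. The study's methods give male C57BL/6J mice and a somewhat younger age at surgery, and the cells were freed by collagenase perfusion. At 0 h the liver was undamaged, and the other groups were taken 48, 72 and 96 h after partial hepatectomy (PHx), surgery that takes away liver lobes and makes the remnant regrow. Each time point had 2 libraries here, 8 in all, whereas the study's text describes more bulk preparations at 0 and 48 h. The labels do not say which animal gave which library, so the p-values below measure the spread between libraries.

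The ESRP proteins are the splicing regulators of epithelial cells, and ESRP2 is known for keeping the adult splicing pattern of hepatocytes. MBNL and CELF proteins bind different elements of many of the same transcripts and often push an exon in opposite directions as tissues mature. RBFOX2 acts from GCAUG elements beside exons, and PTBP1 represses exons in most dividing cells, with PTBP2 as its neuronal counterpart. A gene's promoter is usually open where the gene can be transcribed, whereas the open sites in its introns or flanks are often enhancers.

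The 8 peak lists held 105206 to 154577 distinct intervals, of which 142 to 212 per library lay over the 9 genes and their flanks. In each list intervals were ordered by the deposited −log10 p, and the value used below is the percentile within that list, where 100 is the strongest interval of the library and 0 stands for no interval. The lists hold no read counts, so depth is unknown. The −log10 p at rank 50000 was 8.05 to 8.62 in both 48 h libraries and 96 h replicate 2, 9.96 in 0 h replicate 2 and 14 to 15.2 in the others. In bulk nuclei, fewer cells with an open site and a site that is less open in each cell cannot be told apart. Promoters of hepatocyte genes gave a mixed check of the label. Hnf4a, the nuclear receptor that defines hepatocytes, lay at 95.4 to 98.3 in all libraries, whereas Alb had a promoter interval in 3 of 8 lists (72.3 and 50 (0 h), 58.7 in 96 h replicate 1). The mean over the 8 hepatocyte promoters was 73.8 to 76.7 before PHx, 37.4 to 56.8 (48 h), 61.2 to 65.6 (72 h) and 62.6 to 73.9 (96 h) afterwards. All 5 lymphocyte promoters and 3 of 5 Kupffer cell promoters (Vsig4, Cd5l and Csf1r) had no interval in any list. The mean percentile of the 5 Kupffer cell promoters was 0.758 to 3.32 at 0 h and 0 to 6.55 after PHx, that of the 5 endothelial promoters 12.5 to 15.0 and 18.2 to 27.0, that of the 5 stellate cell promoters 31.5 to 37.4 and 33.3 to 49.4, and that of the 5 cholangiocyte promoters 40.4 to 43.2 and 32.7 to 52.6. Among the defining markers, Colec11, Krt19 and Stab2 were at 0 in every list, Reln, Epcam and Lrat were at 70.8 or above, and the part of these cells in the results below was not tested.

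Promoter windows ran 1 kb to either side of each annotated start site (GENCODE M21 basic), overlapping windows of a gene were joined, and windows that lay apart were kept apart and numbered from the 5′ end of the gene. The 9 genes had 19 such windows. An interval lay in 11 of them in all 8 lists, in 3 in some lists and in 4 in none (Mbnl1 window 1, Mbnl2 window 3, Celf1 window 3 and Celf2 window 3). Mbnl2 window 2 had an interval in 1 list only and was not tested, which left 14. Distal regions were stretches, formed by merging the 50000 strongest intervals of each list, that touched the gene or its flanks but not its promoter windows. There were 77, numbered along the chromosome, and all had an interval in at least 2 lists, the minimum for a test. Of these, 17 (22.1%, beside 25.2% of all tested distal regions) owed their place to strong intervals in PHx lists alone and 6 (7.79%, beside 4.55%) to strong intervals in 0 h lists alone. The way such regions were formed favours high values on that side, and their differences are descriptions.

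The following stretches of mm10 chromosome sequence (read from GRCm38.p6) belong to the features described further on: the nearer of a pair of upstream intervals of Esrp1, the one inside its promoter window, the CCAAT-bearing promoter of Mbnl2, and the 3 intronic regions with the smallest p over time that hold no annotated exon, followed by the intronic region of Celf1 that differed most between 0 h and PHx. Promoters are written on the gene's strand and distal regions on the forward strand. Capitals mark matches to any of 12 short motifs.
Esrp1 nearer upstream interval, chr4:11387186-11387385 (reverse strand): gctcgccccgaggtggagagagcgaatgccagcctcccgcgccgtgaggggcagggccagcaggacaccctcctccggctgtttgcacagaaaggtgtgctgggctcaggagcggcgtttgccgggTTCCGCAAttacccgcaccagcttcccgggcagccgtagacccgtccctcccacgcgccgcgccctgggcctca
Mbnl2 promoter, chr14:120275452-120275651 (forward strand): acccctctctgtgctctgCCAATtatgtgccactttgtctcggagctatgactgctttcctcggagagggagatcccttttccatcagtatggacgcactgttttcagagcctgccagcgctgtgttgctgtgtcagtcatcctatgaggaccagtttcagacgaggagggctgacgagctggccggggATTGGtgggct
Mbnl1 region 8, chr3:60601797-60601996 (forward strand): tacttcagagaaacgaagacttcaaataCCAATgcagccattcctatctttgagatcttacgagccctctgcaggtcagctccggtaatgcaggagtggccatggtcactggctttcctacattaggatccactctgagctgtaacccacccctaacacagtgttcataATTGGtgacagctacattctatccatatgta
Celf2 region 14, chr2:7260325-7260524 (forward strand): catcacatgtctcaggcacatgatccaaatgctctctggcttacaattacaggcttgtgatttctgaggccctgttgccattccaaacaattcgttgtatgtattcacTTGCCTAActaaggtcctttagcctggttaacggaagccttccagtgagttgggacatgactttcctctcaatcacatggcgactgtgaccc
Rbfox2 region 18, chr15:77277408-77277607 (forward strand): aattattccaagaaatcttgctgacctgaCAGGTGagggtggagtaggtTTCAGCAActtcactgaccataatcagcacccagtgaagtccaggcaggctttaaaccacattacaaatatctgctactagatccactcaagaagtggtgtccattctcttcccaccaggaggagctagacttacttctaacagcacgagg
Celf1 region 2, chr2:90950268-90950467 (forward strand): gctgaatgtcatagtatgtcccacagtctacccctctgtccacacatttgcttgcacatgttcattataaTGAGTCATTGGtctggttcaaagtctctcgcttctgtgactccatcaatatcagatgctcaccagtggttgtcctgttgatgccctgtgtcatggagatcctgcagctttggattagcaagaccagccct
The capitals are a C/EBP match (TTNNGCAA) in the Esrp1 stretch and a pair of CCAAT matches, 1 on each strand, in those of Mbnl2 and Mbnl1. They are a C/EBP match in Celf2 region 14, an E-box (CAGGTG, the element of the SNAI and ZEB factors) followed by a C/EBP match in Rbfox2 region 18, and an AP-1 match (TGANTCA) that shares its last base with a CCAAT match in Celf1 region 2. Matches are descriptions of the letters. CCAAT stood in 24.5% and the C/EBP, AP-1 and E-box letters in 13.4%, 8.08% and 17.3% of 46448 distal windows of the same 200 bp. Beside the stretches of Esrp1 and Mbnl2, which are promoters, C/EBP letters stood in 4.90% and CCAAT in 24.3% of 16909 promoter windows.

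The main promoters, defined as the window with the highest median, had medians between 52.0 and 99.8. From the strongest down, the medians over 8 libraries were 99.8 for Ptbp2, 99.5 for Rbfox2, 98.7 for Celf1, 93.0 for Esrp2, 91.5 for Mbnl2, 91.0 for Celf2, 86.7 for Mbnl1, 67.5 for Ptbp1 and 52.0 for Esrp1. Among the medians of all 16909 tested promoter windows, Ptbp2, Rbfox2 and Celf1 stood at the 98.9th, 97.1st and 92.1st percentile and Ptbp1 and Esrp1 at the 26.0th and 18.2nd. The libraries of Ptbp2 (99.6 to 99.9) and Rbfox2 (99.4 to 99.7) overlapped. Those of Esrp2, Mbnl2, Celf2 and Mbnl1 overlapped one another, and so did those of Ptbp1 and Esrp1. Celf1 (96.9 to 99.5) overlapped Rbfox2 above it and Mbnl2, which reached 97.8, but not Esrp2, whose highest value was 96.1. The lowest value of Mbnl1, 80.8, lay just above the highest of Ptbp1, 80.7.

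**Figure D1:**
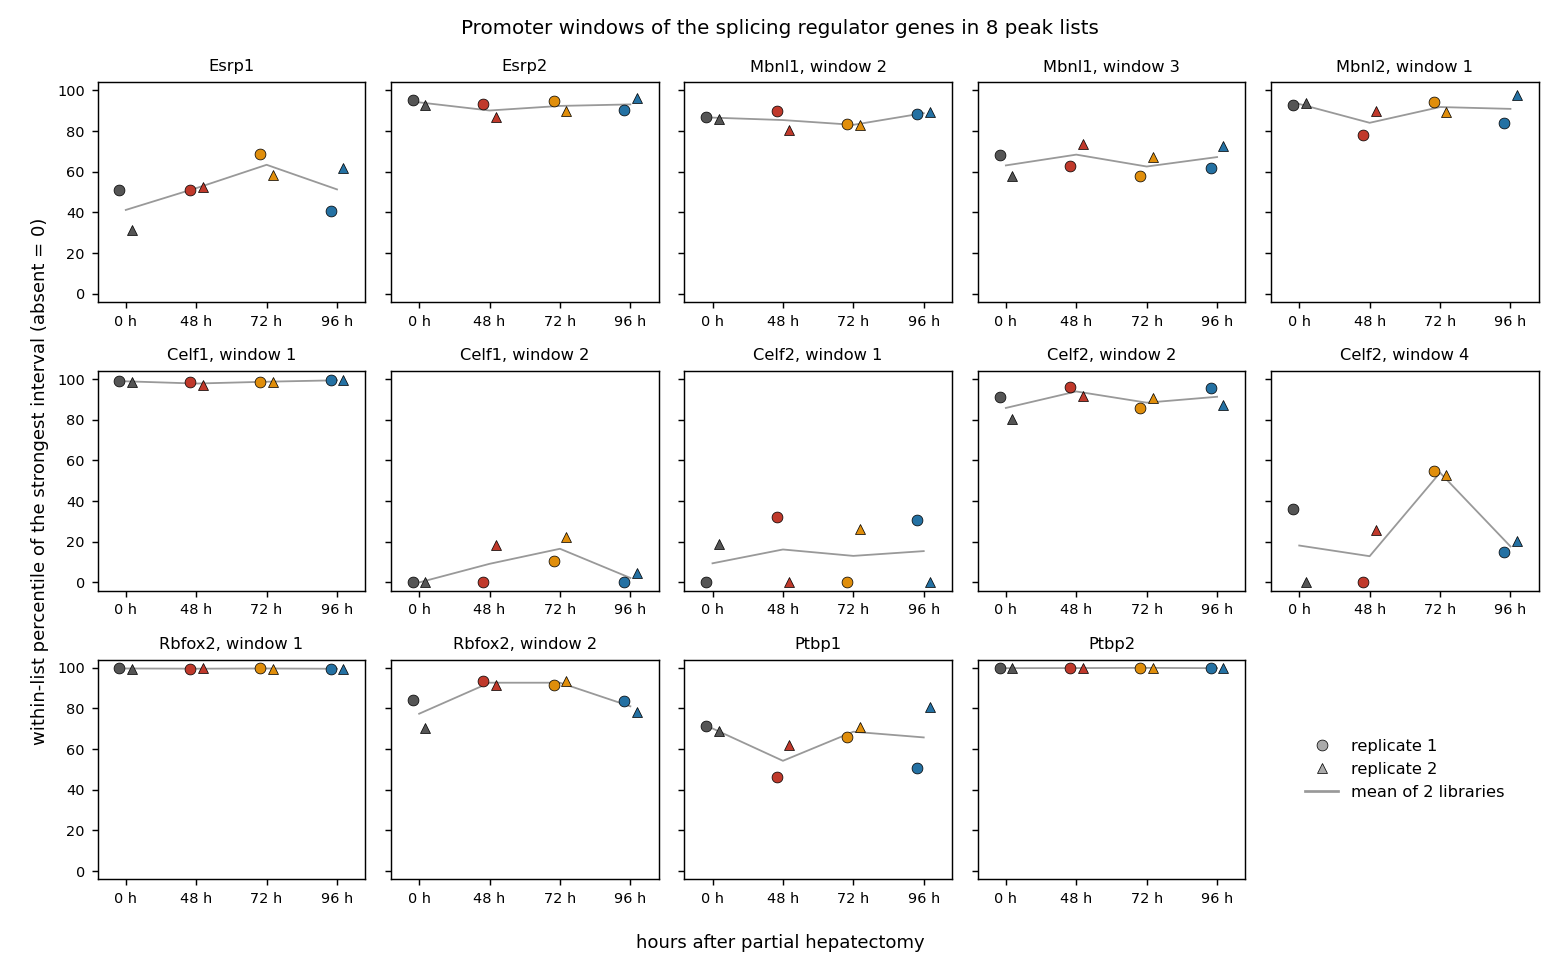
Within-list percentile (vertical axis, absent = 0) of the strongest interval in each of the 14 tested promoter windows by hours after PHx (horizontal axis, 0 to 96), with a circle for replicate 1, a triangle for replicate 2 and a line through the means of 2 libraries. Ptbp2, Rbfox2 window 1 and Celf1 window 1 stay at 96.9 or above in every library, whereas Esrp1, Ptbp1 and the secondary windows of Celf1 and Celf2 spread widely.

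Esrp2 had a single annotated start (chr8:106135974-106137974, reverse strand), and its interval centred 45 to 82 bp inside the transcript in all libraries. The percentiles were 95.5 and 92.8 (0 h), 93.3 and 87.0 (48 h), 94.9 and 89.9 (72 h) and 90.2 and 96.1 (96 h), with replicate 1 first here and throughout. The libraries of each later time overlapped those of 0 h, from below at 48 and 72 h and on both sides at 96 h. The mean was 94.1 ± 1.88 (SD, n = 2) at 0 h and 91.9 ± 3.45 (SD, n = 6) after PHx, a difference of -2.25 that an exact two-sided permutation test did not separate from the spread (p = 0.429, adjusted p = 0.898). Leaving out 1 library at a time moved it between -3.57 and -0.919, the extremes coming from the loss of replicates 2 and 1 of 0 h, and within the 50000 strongest intervals it was -9.35. Ordered by fold enrichment it turned positive, at 4.70 (exact permutation p = 0.5). Fold enrichment over local background, the peak caller's own value, ran from 4.75 to 8.85. The 200 bp around the summit held 4 GC boxes (GGGCGG) and an E-box, elements found in 54.3% and 13.5% of all tested promoters. The promoters whose values moved most like those of Esrp2 over the 8 libraries, out of 13884 listed in all 8, were the shared promoter of Aamp and Pnkd and that of Iqcd (Pearson r = 0.9751 for each). Such r values are a description over 8 libraries that share their list lengths.

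The promoter window of Esrp1 (chr4:11385679-11387783, reverse strand) was different in kind, because no list had an interval over its start sites. All 8 lists held a pair of weak upstream intervals instead. The nearer one had its summit at -652 to -503 bp from the 5′ start and the farther one at -1362 to -1219 bp. The nearer interval lay at 51.0 and 31.5 (0 h), 38.2 and 52.6 (48 h), 26.9 and 58.3 (72 h) and 40.7 and 62.0 (96 h). The farther one lay at 53.8 and 41.8, 51.3 and 76.4, 68.6 and 64.7, and 65.1 and 53.2. Its near edge reached into the window in 3 lists, so that the window's value came from the farther interval in 48 h replicate 1 and 72 h replicate 1 and from the nearer one elsewhere. The nearer interval taken alone overlapped 0 h at every time. On these window values, both libraries at 48 h (51.3 and 52.6) and at 72 h (68.6 and 58.3) exceeded both at 0 h. When an overlap had to cover most of the shorter of interval and window, the difference between PHx and 0 h went from 14.3 (exact permutation p = 0.143) to 5.15 (exact permutation p = 0.643). Leaving out 96 h replicate 1 gave 17.3 (exact permutation p = 0.0476), the only setting tried in which the difference between PHx and 0 h of a main promoter passed 0.05. The difference ran from 4.55 when 0 h replicate 2 was left out to 24 when 0 h replicate 1 was, and within the 50000 strongest intervals alone, where percentiles span a shorter list, it was 2.46 (exact permutation p = 0.786). The sequence of the window was GC-rich (58.5%, at the 80.6th percentile of tested promoters), with a ratio of observed to expected CpG of 0.589 beside a median of 0.573.

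Rbfox2 had a pair of open promoters. Its 5′ window (chr15:77305605-77307928, reverse strand) was among the strongest intervals of every library, at 99.7 and 99.5, 99.4 and 99.6, 99.7 and 99.5, and 99.5 and 99.4 from 0 to 96 h. Both 96 h libraries lay below both 0 h libraries there (difference of means -0.182). The inner window 2 (chr15:77152556-77154812) lay at 84.2 and 70.5 (0 h), 93.5 and 91.7 (48 h), 91.6 and 93.6 (72 h) and 83.7 and 78.3 (96 h). At 48 and 72 h both libraries were above both of 0 h, and at 96 h they overlapped them. The mean was 77.4 ± 9.65 (SD, n = 2) at 0 h and 88.7 ± 6.28 (SD, n = 6) after PHx, and the difference of 11.3 did not pass (exact permutation p = 0.107, adjusted p = 0.688). The windows also differed in sequence: the 5′ one had 59.2% GC and an observed to expected CpG ratio of 0.786, the inner one 48.4% and 0.334.

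Mbnl1 had intervals in windows 2 and 3 and none in window 1. The main window 2 (chr3:60500179-60502278, forward strand) lay at 87.1 and 86.2 (0 h), 90.1 and 80.8 (48 h), 83.4 and 82.8 (72 h) and 88.5 and 89.2 (96 h). Both 72 h libraries were below, and both 96 h libraries above, those of 0 h. Window 3 (chr3:60528031-60530149) was weaker, between 58.1 and 73.9, and overlapped 0 h at every time. Mbnl2 window 1 (chr14:120274669-120276721, forward strand) lay at 92.9 and 93.8 (0 h), 78.1 and 90.1 (48 h), 94.1 and 89.6 (72 h) and 84.1 and 97.8 (96 h). Both 48 h libraries were lower than those of 0 h, and the fold enrichment ranged from 4.89 in 48 h replicate 1 to 13.8 in 96 h replicate 2. The differences between PHx and 0 h were -0.873 (exact permutation p = 0.786) for Mbnl1 and -4.36 (exact permutation p = 0.5) for Mbnl2. The latter was -2.18 when 48 h replicate 1 was left out, and within the 50000 strongest intervals the differences were -8.78 and -14.4. Ordered by fold enrichment, that of Mbnl1 turned to 4.11 (exact permutation p = 0.321). The Mbnl1 window was rich in CpG (0.829, at the 92.4th percentile of tested promoters), whereas that of Mbnl2 had only 44.2% GC, at the 5.79th percentile.

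Celf1 window 1 (chr2:90939397-90941543, forward strand) lay at 99.2 and 98.6 (0 h), 98.7 and 96.9 (48 h), 98.7 and 98.7 (72 h) and 99.3 and 99.5 (96 h), and only at 96 h were both libraries above those of 0 h. Its 200 bp around the summit held 5 GC boxes and an ETS element (CCGGAAG). Window 2 of Celf1 had no interval at 0 h and weak ones in 4 later lists (18.3, 10.7, 22.4 and 4.41). Celf2 is the longest of the 9 genes, at 970 kb. Its main window 2 (chr2:7080207-7082302, reverse strand) lay at 91.2 and 80.4 (0 h), 96.1 and 91.7 (48 h), 85.9 and 90.9 (72 h) and 95.5 and 87.1 (96 h), with only the 48 h libraries both above 0 h. Window 4, the most 3′ one, lay at 36.3 and 0 (0 h), 0 and 25.8 (48 h), 55.0 and 52.9 (72 h) and 15.2 and 20.2 (96 h), so the 72 h pair stood apart. Its exact permutation p over the 4 times was 0.238 (adjusted p = 0.851). Window 1 was listed in 4 libraries at 18.8 to 32.4. All 4 windows were poor in CpG, with ratios of 0.215 to 0.353.

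The PTB genes had the strongest and the second weakest of the 9 main promoters. Ptbp2 (chr3:119782286-119784804, reverse strand), whose product is known from neurons, lay at 99.7 and 99.8, 99.7 and 99.9, 99.9 and 99.9, and 99.9 and 99.6 from 0 to 96 h, with fold enrichments of 15.1 to 21.1. Both 72 h libraries exceeded 0 h. Ptbp1 (chr10:79853427-79855668, forward strand), the broadly expressed paralog, lay at 71.3 and 68.9 (0 h), 46.3 and 62.1 (48 h), 66.1 and 70.9 (72 h) and 50.7 and 80.7 (96 h), with fold enrichments of 2.96 to 5.96. Both 48 h libraries were below those of 0 h, and the 96 h libraries were the farthest apart. Every list divided the Ptbp1 window into 2 or 3 intervals, and the summit of the strongest lay 781 to 799 bp upstream in 3 lists (both of 48 h and 72 h replicate 2) and within 92 bp of a start in the other 5. Ptbp1 nevertheless had the highest GC content of the 9 main promoters (61.2%) and a CpG ratio of 0.831, and Ptbp2 57.6% and 0.779. The differences between PHx and 0 h were -7.30 for Ptbp1 (exact permutation p = 0.536) and 0.0597 for Ptbp2 (exact permutation p = 0.571). For Ptbp1 it shrank to -3.99 when 48 h replicate 1 was left out, and reached -10.9 when 96 h replicate 2 was and -13.3 with start sites ± 500 bp, and within the 50000 strongest intervals it was -19.9.

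The 14 tested promoter windows were then compared with 0 h at each time. At 48 h both libraries were above both of 0 h at 3 windows (Esrp1, on neither of its intervals taken alone, Celf2 window 2 and Rbfox2 window 2), beside 19.2% of all tested promoters, and below at 2 (Ptbp1 and Mbnl2), beside 20.2%. At 72 h, 5 were above (Esrp1, Rbfox2 window 2, Celf1 window 2, Celf2 window 4 and Ptbp2, background 27.5%) and 1 below (Mbnl1 window 2, 14.9%). Celf1 window 2, with no interval at 0 h, was tested through PHx lists alone and could only be called above, so its call is no support for a change. At 96 h, 2 were above (Celf1 window 1 and Mbnl1 window 2; 21.7%) and 1 below (Rbfox2 window 1; 11.2%). A single window (Mbnl1 window 2) was above at 1 time and below at another (4.97% of all). No p-value applies to 2 libraries against 2, where the smallest two-sided value is 0.333. Over the 4 time points, 0 of 14 reached an unadjusted exact permutation p under 0.05, beside 5.69% of all promoters. Between all PHx libraries and 0 h, 0 were higher (5.44% of all) and 0 lower (0.863%) at an exact permutation p under 0.05, and in 0 windows did all 6 PHx libraries lie above (6.56%) or below (3.42%) both 0 h libraries. The smallest adjusted p among the 14 was 0.806 over time and 0.688 for PHx, and among all 16909 promoters it was 0.800 and 0.567, so that no promoter in the series passed after adjustment with these 8 libraries. The median difference between PHx and 0 h was 1.48 percentiles for the members and 0.295 for all.

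The distal regions were unevenly shared among the genes. Rbfox2 had 19, Mbnl2 17, Celf2 15, Mbnl1 11, Celf1 and Esrp2 4 each, Ptbp1 3, and Ptbp2 and Esrp1 2 each. The strongest summit lay in an intron in 63, downstream of the gene in 7, upstream in 4 and in an annotated 3′ UTR in 3. Of the 77, 57 were listed in all 8 libraries, and 27 were among the 50000 strongest intervals of all 8. Strong intervals were also counted per 100 kb of gene and flanks, with those at promoters included. A mean of 11.7 per library fell on Esrp2, 8.17 on Mbnl2, 7 on Ptbp1, 5.09 on Rbfox2, 4.8 on Mbnl1, 4.04 on Celf1, 2.92 on Ptbp2, 2.84 on Esrp1 and 1.10 on Celf2. The median was 3.83 over all coding genes and 2.64 over those of at least 50 kb. Esrp1 region 1, at 98.0 to 99.7 the strongest of all 77, overlapped the promoter of the neighbouring gene Dpy19l4, and Ptbp1 region 3 that of Plppr3. Celf2 region 10 (chr2:6871670-6873054), at 91.2 to 98.0, contained a RefSeq start of Celf2 itself, at position 6872035, that the GENCODE start sites used here do not include.

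**Figure D2:**
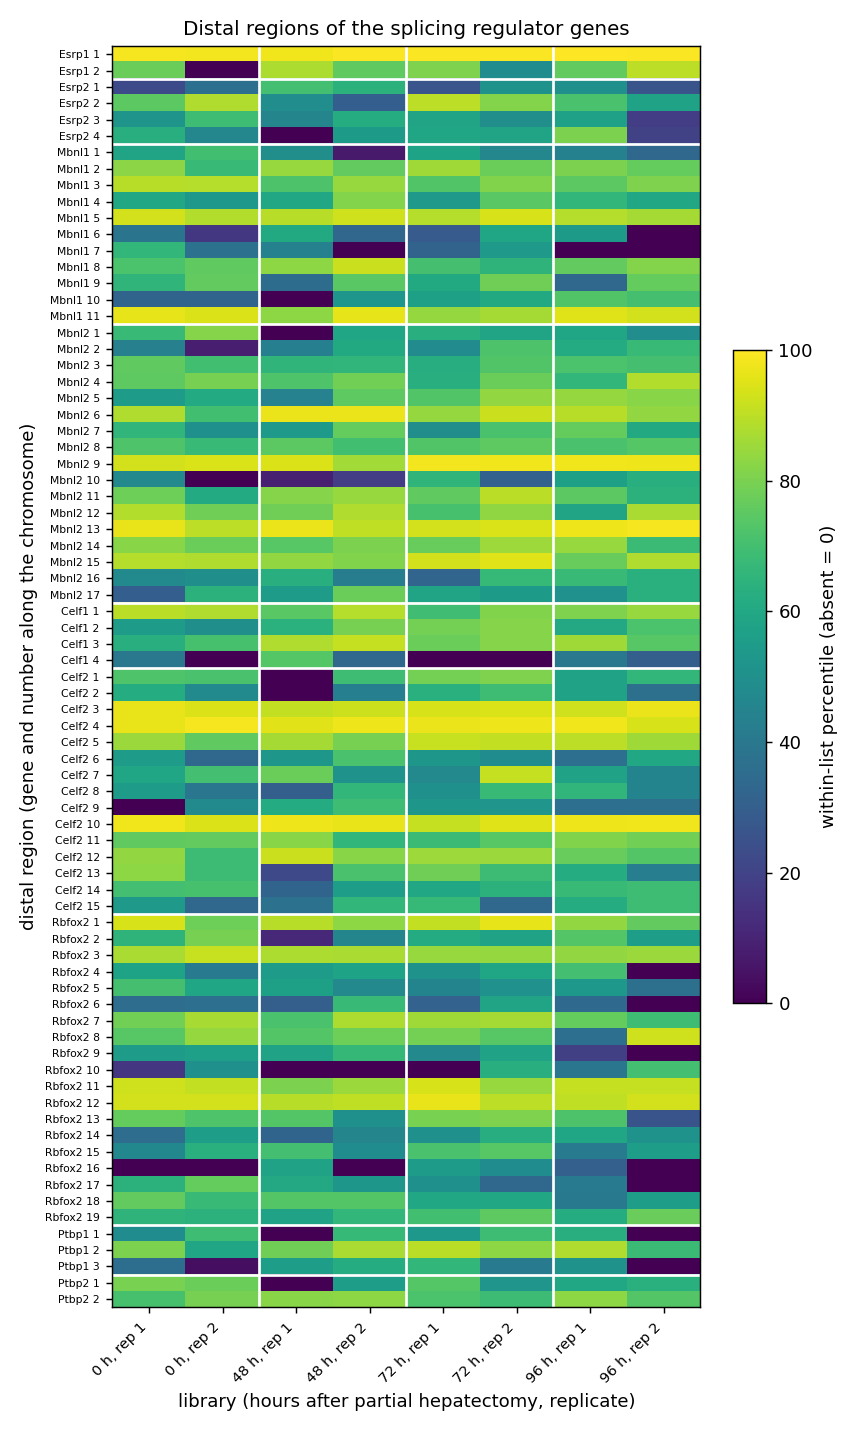
Within-list percentile (colour, absent = 0) of the 77 distal regions (rows, by gene and number along the chromosome) in the 8 libraries (columns, by hours after PHx and replicate). A few regions of each large gene are bright in every library, such as Celf2 regions 3, 4 and 10 and Mbnl2 regions 9 and 13, and of the 30 cells at 0, 9 are in 96 h replicate 2 and 8 in 48 h replicate 1.

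The strongest regions of the larger genes were listed high in every library. Celf2 region 4 had a median of 97.3 and a range of 94.0 to 98.6 and overlapped 0 h at each time. Mbnl2 region 9 had a median of 96.0 and a range of 86.0 to 98.3, with both libraries above 0 h at 72 and 96 h. Mbnl1 region 11 (83.2 to 96.4) and Rbfox2 region 12 (89.1 to 96.8) were the strongest of their genes, the former lower than 0 h at 72 h and the latter at 48 and 96 h. Celf1 region 1, upstream of the gene, ranged from 69.2 to 89.5. At the other end, Rbfox2 region 16 was listed in 4 libraries and Mbnl1 region 7, Celf1 region 4 and Rbfox2 region 10 in 5. Among the smaller loci, the strongest were Ptbp1 region 2, downstream of the gene (58.7 to 89.5), Ptbp2 region 2 in an intron (68.7 to 82.9) and Esrp2 region 2. The largest differences of a gene between PHx and 0 h included 37.6 at Esrp1 region 2, absent from 0 h replicate 2, and 33.1 at Mbnl2 region 2. They were 18.4 at Esrp2 region 1 and -30.1 at Mbnl1 region 7. All of these but Esrp1 region 2 entered through strong intervals on their high side alone. Celf2 region 9, Rbfox2 region 16 and Ptbp1 region 3 were also named for the largest difference of their gene.

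Esrp2 region 2 (chr8:106130096-106131024), whose summit lay in the 3′ UTR, had the widest swing over time among the regions with a small p. Its percentiles were 74.8 and 88.0 (0 h), 49.1 and 30.0 (48 h), 90.2 and 81.4 (72 h) and 71.4 and 57.6 (96 h). Both 48 h libraries lay below all others, both 72 h libraries overlapped 0 h, and both 96 h libraries lay below 0 h. The exact permutation p over the 4 times was 0.0286 (adjusted p = 0.700), and the mean of all PHx libraries was 18.1 lower than that of 0 h (exact permutation p = 0.357). The mean of the hepatocyte promoters, given above, was likewise lowest at 48 h, and its part in this value was not tested. The other Esrp2 regions were weaker, with medians of 43.4 to 56.4. Of these only region 1, overlapping the neighbouring gene Nfatc3, stood apart from 0 h at any time, at 70.1 and 64.3 (48 h) against 22.6 and 36.5, and its only strong intervals were those of 48 h, through which it was included.

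In the introns of Mbnl1 and Celf2, region 8 and region 14 reached the smallest p that 105 pairings of 8 libraries allow, 0.00952. Mbnl1 region 8 (chr3:60601528-60602027) lay at 71.7 and 75.4 (0 h), 83.2 and 91.8 (48 h), 70.4 and 65.2 (72 h) and 75.9 and 81.4 (96 h). It was higher than 0 h at 48 and 96 h and lower at 72 h. Celf2 region 14 (chr2:7259606-7260721) lay at 70.2 and 70.9, 32.4 and 56.1, 59.8 and 64.3, and 67.6 and 68.9, and was lower than 0 h at each time, most at 48 h, although the difference between all PHx libraries and 0 h of -12.3 did not pass (exact permutation p = 0.286). After Benjamini-Hochberg adjustment over 46448 regions both exact permutation p were 0.700. Rbfox2 region 18 (chr15:77276857-77277712), in the first part of the gene, lay at 75.8 and 67.6, 73.3 and 73.4, 59.8 and 60.1, and 40.4 and 56.2 (exact permutation p = 0.0286, adjusted p = 0.700), so that it overlapped 0 h at 48 h and was lower at 72 and 96 h.

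**Figure D3:**
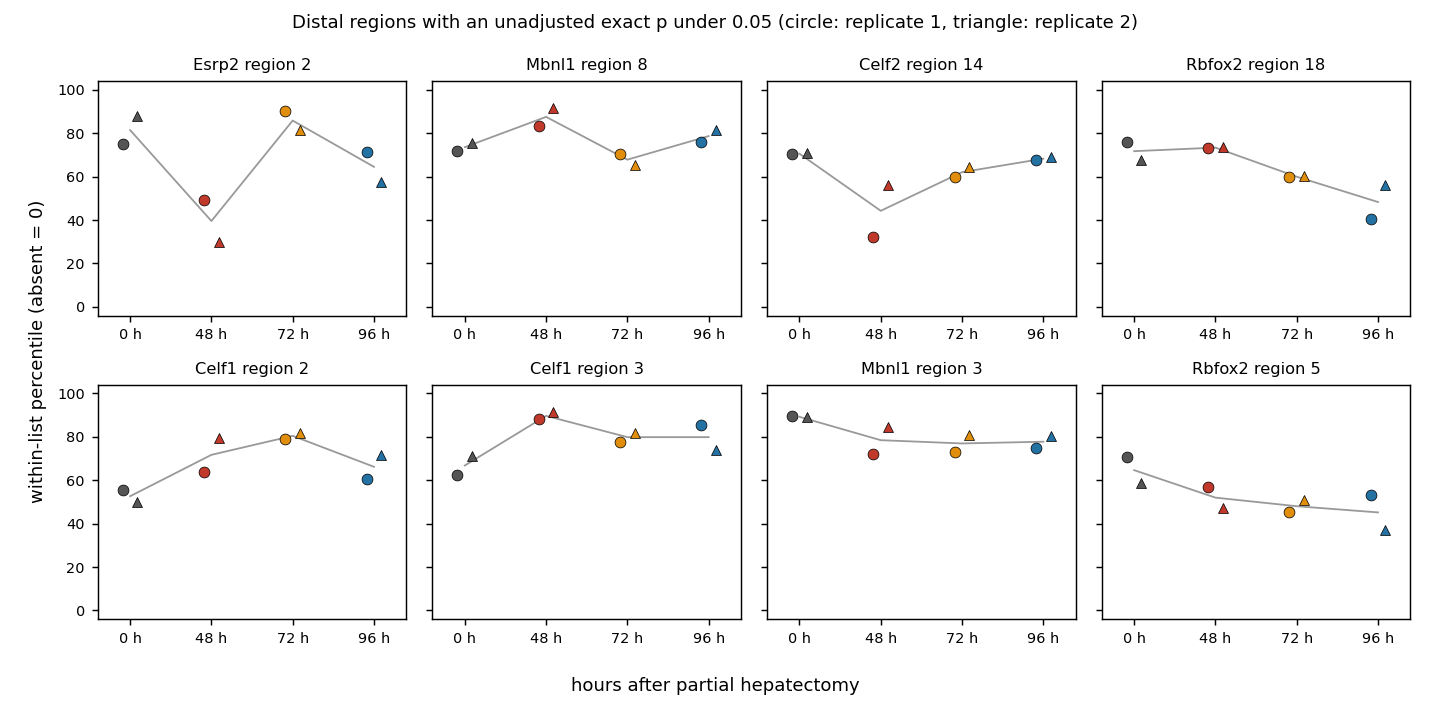
Within-list percentile (vertical axis) by hours after PHx (horizontal axis) of the 8 distal regions with an unadjusted exact permutation p under 0.05, over the 4 times (upper row) or between PHx and 0 h (lower row), with a circle and a triangle for replicates 1 and 2 and a line through their mean. Celf1 regions 2 and 3 lie above, and Mbnl1 region 3 and Rbfox2 region 5 below, their 0 h libraries in all 6 PHx libraries. Celf1 region 2 and Rbfox2 region 5 entered only through strong intervals on the side where they are high, so their separation is no support for a change.

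In 2 of the 77 regions all 6 PHx libraries lay above both 0 h libraries (7.13% of all distal regions did so), and in 7 all 6 lay below (2.36%). Of these 9, 4 had the smallest p of the 28 splits, 0.0357. Celf1 region 2 entered through strong intervals in PHx lists alone, and Rbfox2 region 5, Mbnl1 region 1 and Mbnl2 region 1 through those of 0 h alone. The separation and p of these regions are no support for a change. The other 5 had strong intervals on both sides, and their values are descriptions too. Celf1 region 2 (chr2:90950207-90951031) lay at 55.4 and 49.8 (0 h), 63.9 and 79.4 (48 h), 79.1 and 81.7 (72 h) and 60.5 and 71.8 (96 h), a difference of 20.1. Celf1 region 3 (chr2:90964794-90965577), in the same gene, lay at 62.5 and 71.0 (0 h) and between 74.0 and 91.2 after PHx, a difference of 16.3. Mbnl1 region 3 (chr3:60515955-60516803) lay at 89.4 and 88.9 (0 h) and between 72.1 and 84.7 after PHx, a difference of -11.4. Rbfox2 region 5 (chr15:77142383-77143294) lay at 70.5 and 58.7 (0 h) and between 37.1 and 56.7 after PHx, a difference of -16.2. All 4 are intronic, and regions 3 of Celf1 and Mbnl1 and 5 of Rbfox2 were named after their values were seen. The other 5, with all 6 PHx libraries below and named to complete the count, were Celf2 region 14 and Mbnl1 region 1, Mbnl2 region 1, Rbfox2 region 17 and Ptbp2 region 1, with differences of -24.3, -26.6, -30.5 and -27.8 for the last 4 (exact permutation p = 0.107 to 0.25). Each of the last 3 includes an absent interval, in 48 h replicate 1 or, for Rbfox2, in 96 h replicate 2. None passed after adjustment (smallest adjusted p = 0.543, exact permutation test with Benjamini-Hochberg adjustment).

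Counted over all 77, the distal regions of the splicing regulators gave the following shares beside those of all distal regions tested. At 48 h both libraries were above both of 0 h at 10 (background 22.5%) and below at 17 (17.8%). At 72 h, 20 were above (36.8%) and 15 below (8.71%), and at 96 h 15 above (24.4%) and 20 below (10.7%). In 7 both libraries were above at 1 time and below at another (6.15%). Over the 4 times 4 of 77 had an exact permutation p under 0.05, beside 6.58% of all distal regions, and between PHx and 0 h 2 were higher (5.97%) and 2 lower (0.605%). Among the latter calls, Celf1 region 2 (higher) and Rbfox2 region 5 (lower) had entered through strong intervals on their high side alone. Leaving out 1 library at a time gave 1 to 10 over the 4 times and 0 to 10 for PHx, with 10 for PHx when 48 h replicate 1 was left out, and the 50000 strongest intervals gave 2 and 7. The median difference between PHx and 0 h was -0.581 percentiles for the members and 2.42 for all 46448. The shares of all distal regions are those of the main setting, so the counts under other settings have no background beside them. The 3 time points share the 0 h libraries, and regions of 1 gene share their locus, so all these counts are descriptions.

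**Figure D4:**
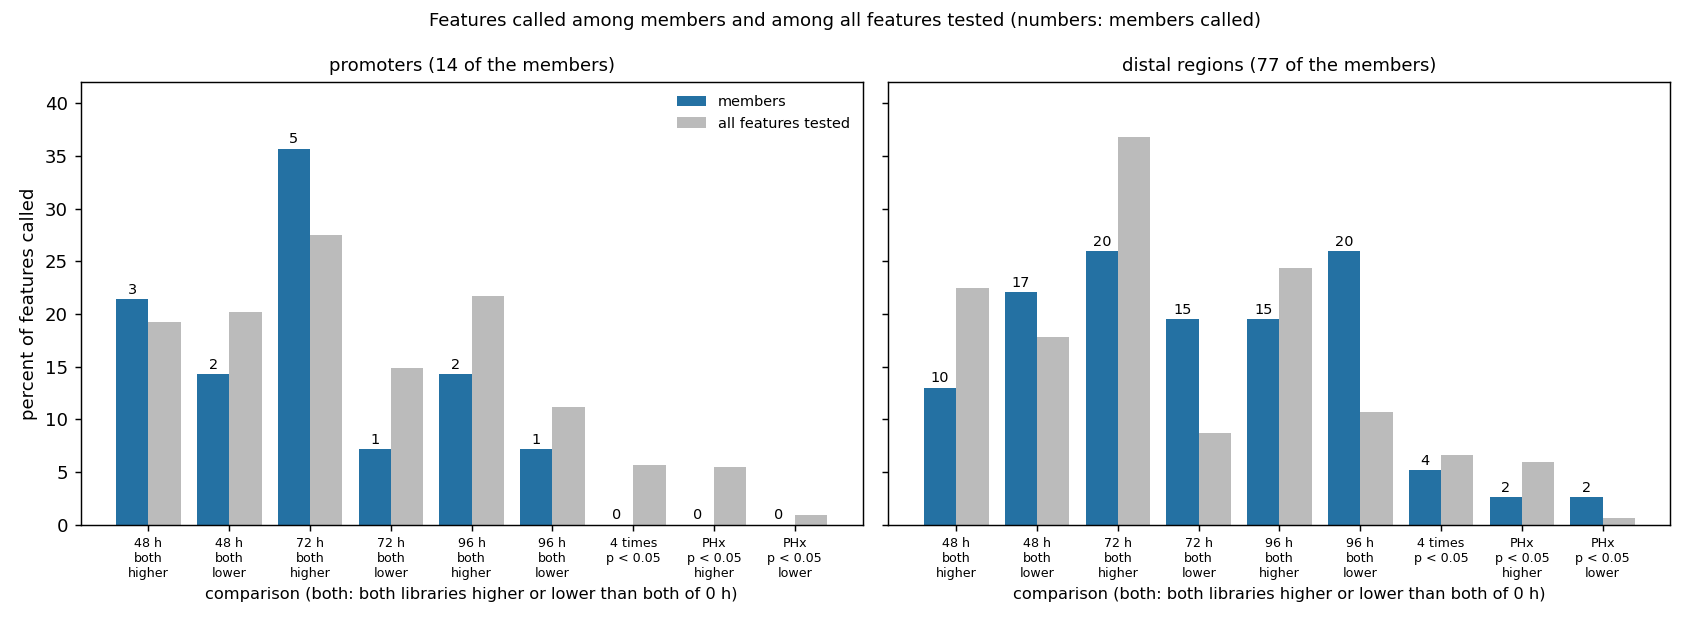
Percent of features called (vertical axis) among the members (blue, with the number called above each bar) and among all features tested (grey), for 14 promoter windows (left) and 77 distal regions (right), in each comparison with 0 h and over the 4 times. At the distal regions the members stand at 19.5% lower at 72 h and 26.0% at 96 h, beside 8.71% and 10.7% of all regions. Their higher shares at these times are 26.0% and 19.5%, beside 36.8% and 24.4%. Rbfox2 alone gave 5 of the 15 lower regions at 72 h and 9 of the 20 at 96 h.

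By gene, of the 19 regions of Rbfox2, 6, 5 and 9 were lower than 0 h in the 48, 72 and 96 h libraries, while 1, 4 and 0 were higher. Of the 17 regions of Mbnl2, 2, 5 and 6 were higher and 3, 1 and 1 lower. Celf2 had 1, 5 and 3 of 15 higher and 4, 3 and 4 lower, and Mbnl1 1, 1 and 3 of 11 higher and 2, 4 and 3 lower. Celf1 had 2, 2 and 2 of 4 higher and 0, 1 and 1 lower, Esrp2 1, 0 and 0 of 4 higher and 1, 0 and 1 lower, and Ptbp1 1, 2 and 0 of 3 higher and 0 lower. Of the pairs of regions, those of Ptbp2 gave 1, 0 and 0 higher and 1, 1 and 1 lower, and those of Esrp1 0, 1 and 1 higher and 0 lower. Over all distal regions the shares at the same times were 22.5%, 36.8% and 24.4% higher and 17.8%, 8.71% and 10.7% lower. The count of strong intervals over Rbfox2 was 14 and 17 (0 h), 16 and 12 (48 h), 11 and 11 (72 h) and 10 and 10 (96 h) (exact permutation p = 0.152 over the 4 times and 0.0714 for PHx against 0 h). For Mbnl1 it was 9 and 10, 9 and 10, 6 and 7, and 8 and 9 (exact permutation p = 0.0857 over time). In 96 h replicate 2, whose list was among the weakest at rank 50000, 5 Rbfox2 regions (4, 6, 9, 16 and 17) were absent, and the part of that library in the 96 h count was not tested.

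**Figure D5:**
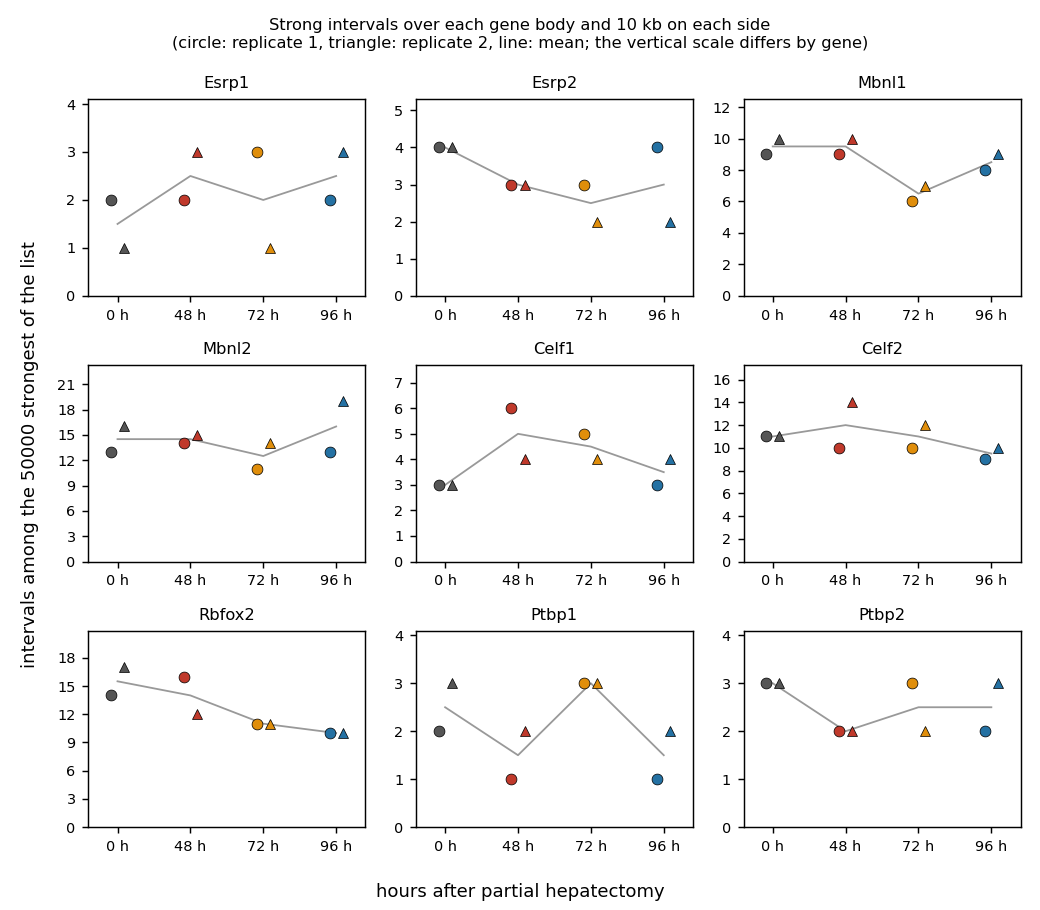
Number of intervals among the 50000 strongest of each list (vertical axis, starting at 0 and scaled per gene) over each gene with 10 kb on either side, by hours after PHx (horizontal axis), with a circle and a triangle for replicates 1 and 2 and a line through their mean. Rbfox2 stands at 14 and 17 (0 h) and at 10 and 10 (96 h), whereas the counts of Esrp1, Esrp2, Celf1, Ptbp1 and Ptbp2 lie between 1 and 6.

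Short motifs were searched on both strands of the 200 bp around each summit. Of the 9 main promoters 7 held a GC box (54.3% of all tested promoters), 2 CCAAT (24.3%), 2 the E-box (13.5%), and 1 each a CTCF (CNAGGNGGC, 10.9%), ETS (11.6%), C/EBP (4.90%) and AP-1 (3.21%) match. The AP-1 match was in Celf2 and the C/EBP match in Ptbp2. Esrp1 was counted at its strongest summit, in the farther interval outside the promoter window, so the C/EBP match of the nearer stretch printed above is not among these, and the CTCF match is that of the farther one. Of 21 named distal regions 5 held the E-box, 3 CCAAT (24.5% of all distal regions), 2 each C/EBP, AP-1 and ETS (2.79%), and 1 a GC box (12.7%). No window of either kind held the letters searched for FOXA, HNF4, HNF1, NRF1 or GRHL. Those letters stood in 0.101% to 4.95% of distal windows and 0.136% to 2.42% of promoters, so their absence from these few windows says nothing of the factors.

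Other splicing genes, also chosen with earlier results of these data known, give a frame for these values. The main promoters of 26 broadly used SR and hnRNP genes were listed in all 8 libraries without exception, at a median of 86.5. Of these 26, Srsf7 and Srsf10 had an unadjusted exact permutation p of 0.00952 over time (adjusted p = 0.800), beside 5.69% of all promoters under 0.05. Srsf7 was at 93.4 and 92.7 (0 h), 84.4 and 91.7 (48 h), 93.7 and 95.8 (72 h) and 92.2 and 92.5 (96 h), lower than 0 h at 48 and 96 h and higher at 72 h. Srsf10 was at 92.0 and 92.0 (0 h), 92.7 and 96.5 (48 h), 87.9 and 88.5 (72 h) and 89.5 and 91.7 (96 h), higher at 48 h and lower at 72 and 96 h. Among 8 paralogs of the members, 4 were listed in all libraries, with Celf5 at 92.9 to 99.1, Ptbp3 at 90.4 to 97.4, Mbnl3 at 77.8 to 91.9 and Celf6 at 22.0 to 81.3. Rbfox1, the muscle and brain paralog, had no promoter interval at 0 or 48 h and lay at 28.7 and 60.1 (72 h) and 36.7 and 26.0 (96 h) (exact permutation p = 0.0571 over time). Rbfox3 was similar, at 24.7 and 0, 0 and 0, 40.4 and 39.7, and 38.4 and 45.3 from 0 to 96 h. Of the 8 paralogs, 4 (Celf3, Celf4, Rbfox1 and Rbfox3) were higher than 0 h at 72 and at 96 h (27.5% and 21.7% of all promoters). At each of these times 1 was lower (14.9% and 11.2%). The 72 h lists were long (140311 and 154577 intervals) and that of 0 h replicate 2 the shortest (105206), and the part of list length was not tested. Of 14 other tissue-restricted regulators, 10 were listed in all libraries and Elavl3 and Srrm3 in none. Rbm20, known from heart muscle, was at 1.96 and 10.5 (0 h) and between 32.4 and 67.7 after PHx (difference 48.9, exact permutation p = 0.0357, adjusted p = 0.567).

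Genes linked to the ESRP proteins, likewise chosen with earlier results of these data known, had promoters of very different strength. The 4 Hippo pathway genes whose transcripts ESRP2 is known to splice were listed in all 8 libraries, with Nf2 at 95.2 to 98.1, Yap1 at 89.8 to 98.3 and Csnk1d at 51.7 to 76.1. Tead1, the DNA-binding partner of YAP, was at 82.5 and 73.0 (0 h) and between 86.9 and 94.2 after PHx (difference 12.9, exact permutation p = 0.0357, adjusted p = 0.567). Of the epithelial ESRP targets, Fgfr2 was at 77.6 and 61.4 (0 h) and 74.9 to 89.6 after PHx (exact permutation p = 0.0714), and Cd44 was listed in 6 of 8 libraries at 10.5 to 50.7. Enah was at 71.9 to 93.8. Ctnnd1 was at 91.4 and 92.2 (0 h), and lower at 48 h (79.6 and 84.3) and 72 h (89.1 and 90.3). Among 7 regulators of Esrp genes, 6 were listed in all libraries, the weakest single value being 3.79 for Ovol1. Zeb1, a repressor of epithelial genes, was at 82.6 and 81.8 (0 h), 68.9 and 77.5 (48 h), 86.7 and 93.4 (72 h) and 83.8 and 85.3 (96 h) (exact permutation p = 0.00952, adjusted p = 0.800). Grhl2, an activator of epithelial genes, was listed in 5 of 8 libraries, with no interval at 0 h and at most 52.8 later.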

How the data were processed

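Bulk ATAC-Seq of hepatocytes before PHx (0 h) and at 48, 72 and 96 h gave 8 peak lists, 2 per time point. Groups come from the GEO labels alone, also for 72 h replicate 2, whose list is named in another scheme than the rest. Per the study's methods, the authors trimmed the reads, aligned them to mm10 with Bowtie2, removed duplicates and called peaks with MACS2 in the ENCODE pipeline, and 1 list per library was deposited. The deposited lists give a display score and a summit offset in bp, a fold enrichment over local background (a ratio), and −log10 values of p and q. They hold no counts, so the study's count test could not be run, depth is unknown, and no intervals or floors are given.

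Lines with the same interval were collapsed to the highest −log10 p (105206 to 154577 distinct intervals per library) and turned into within-list percentiles. Tied intervals share their mean rank, a correction made after first results were seen, which changed no call of a member. Features were promoter windows and distal regions of all protein-coding genes (GENCODE M21), kept if listed in at least 2 of 8 libraries. A region overlapping by any base was counted. Exact permutation tests ran over all 105 pairings of 8 libraries for the 4 times, and two-sided over all 28 splits for PHx against 0 h, with Benjamini-Hochberg adjustment over all features of a kind. Since a single pair of libraries standing apart can have a p of up to 0.143 over the 4 times, a change at 1 time can be missed. Single time points were compared by whether the libraries overlap. The tests were tried on simulated data. All members were named, with their main and tested alternative promoters and the distal regions with the highest median, the largest difference between PHx and 0 h, or p under 0.05 over time (at most 3 per gene). The members, gene lists and motifs were chosen with earlier results of these data known. Alternatives were the rank, ordering by fold, q under 0.05, the 50000 strongest intervals, a larger overlap, start sites ± 500 bp (promoters only), the replicate block and leaving out each library. Python 3.11.15, numpy 2.4.6, pandas 2.3.3 and matplotlib 3.10.9 were used. Start positions and promoters of RefSeq were also consulted, and its promoter table held 6 of the 9 genes.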

Additional observations from a re-analysis of the deposited data

Results flagged for a closer look

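In 8 features of these genes, 1 of 14 tested promoter windows and 7 of 77 distal regions (beside 4.97% of all promoters and 6.15% of all distal regions), both libraries of a time point lay above both 0 h libraries and both of another time point below them. The differences between the time points were not tested, and all comparisons share the 0 h libraries. At the main promoter of Mbnl1 (window 2) the mean percentile at 72 h minus that at 96 h was -5.75. Mbnl1 region 8 differed by 19.7 between 48 and 72 h and by -10.8 between 72 and 96 h. Mbnl2 region 15 was 83.6 and 81.0 at 48 h and 93.0 and 95.1 at 72 h, a difference of -11.7. At Celf2 region 1 the difference between 48 and 72 h was -45.5 and that between 72 and 96 h 17.8, at region 2 the difference between 48 and 72 h was -44.7, and at region 11 that between 72 and 96 h was -8.72. The large values of regions 1 and 2 come with an absent interval in 48 h replicate 1. Rbfox2 region 9 differed by 52.6 between 48 and 96 h, with no interval in 96 h replicate 2, and Rbfox2 region 13 by 31.3 between 72 and 96 h, where the 96 h libraries stood at 72.0 and 26.0.

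Mbnl2 window 2, which entered no comparison, had an interval at a percentile of 40.2 in 96 h replicate 2, 354 bp upstream of the start, and none in the other 7 lists.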

How the results depend on the processing

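Shares of all features are given above for the main setting only, so the counts under other settings in this section have no background. For promoters, 5, 6 and 3 windows differed from 0 h at 48, 72 and 96 h. Only intervals with q under 0.05 gave 3 at 48 h, and both the rank and the 50000 strongest intervals gave 1 at 96 h. For distal regions, the 50000 strongest intervals gave 2 over the 4 times and 7 for PHx against 0 h, where 4 had been called in each, and the rank gave 2 for PHx. Ordered by fold enrichment, the PHx minus 0 h difference changed sign at the main promoters of Esrp2 (4.70), Mbnl1 (4.11), Celf1 (0.485) and Rbfox2 (0.558), none of which passed in either order; the cause was not tested.

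Leaving out each library gave 5 to 11, 6 to 11 and 3 to 10 promoters at 48, 72 and 96 h, 0 to 2 over the 4 times and 0 to 1 for PHx. For distal regions it gave 27 to 61, 35 to 59 and 35 to 58, 1 to 10 over the 4 times and 0 to 10 for PHx. A time point reduced to 1 library overlaps 0 h less easily by construction. The 10 for PHx came without 48 h replicate 1, and 9 and 10 over the 4 times without 48 h replicates 1 and 2, whereas 2 were left over the 4 times without 0 h replicate 2 or 72 h replicate 2 and 1 without 72 h replicate 1. For PHx 2 were left without 72 h replicate 1 or 96 h replicate 1. Without a 0 h library the smallest p for PHx is 0.143, so 0 could be called. The difference at Celf1 changed sign without 0 h replicate 1 (0.0017) and 48 h replicate 2 (0.0827), that at Rbfox2 without 0 h replicate 1 (0.000505) and that at Mbnl1 without 48 h replicate 2 (0.122). Over all such fits these differences ran from -0.534 to 0.0827, -0.213 to 0.000505 and -1.73 to 0.122.

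Between libraries with the same replicate number, correlations of deviations lay between -0.0786 and 0.119 over promoters and between -0.0586 and 0.0651 over distal regions. The labels give these libraries only a number in common, and a shared batch was not tested. With the replicate block, 45 distal regions moved the same way in both numbers at 48 h, beside 27 without it. Moving the same way is a looser rule than no overlap and cannot give fewer regions, so the higher count shows no further change. For PHx 0 could pass with the block, where the smallest p is 0.0625. With no read counts the depth behind weak intervals, such as those of Esrp1 and the secondary windows of Celf1 and Celf2, is unknown, and an absent interval does not show closed chromatin.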
